A study of Mus musculus with 4 samples.

Results

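Allele-specific expression was examined for 10 imprinted genes of the H19-Igf2 and Kcnq1 domains on distal chromosome 7, H19, Igf2, Cdkn1c, Phlda2, Kcnq1ot1, Kcnq1, Ascl2, Slc22a18, Tssc4 and Cd81. They were taken by symbol from the 24026 genes measured in F123-ESCs, and all 10 were listed. The cells were a male F1 hybrid mouse ESC line of genotype S129/CAST, with S129 as the maternal and CAST as the paternal genome, and they were untreated. They were kept on inactivated feeder fibroblasts, moved to feeder-free plates before harvest, and collected about 48 h after plating. RNAseq of polyA-enriched RNA gave 4 libraries, replicates 1 to 4, each with an RPKM (reads scaled by gene length and by the total reads of that allele in that library) for the S129 and the CAST copy of every gene.

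A single line from 1 direction of the cross was measured, so an effect of the parent of origin and one of the strain's sequence cannot be told apart for any gene. The labels do not say that the replicates were separate cultures, and the p-values measure the spread between these libraries, which may be technical.

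Genomic imprinting marks 1 parental copy of a gene in the germ line so that the copies are not used equally. In the H19-Igf2 domain, a control region upstream of H19 is methylated on the paternal chromosome and bound by the insulator protein CTCF on the maternal one. As known from embryo and placenta, the maternal chromosome then expresses the non-coding RNA H19, and the paternal one the growth factor Igf2. In the Kcnq1 domain, the control region is the promoter of the long antisense RNA Kcnq1ot1, which is transcribed from the paternal chromosome and silences neighbouring genes there. Genes close to it, among them Cdkn1c, Phlda2, Slc22a18 and Kcnq1, are known as maternally expressed in many embryonic tissues, and others, such as Ascl2, Tssc4 and Cd81, chiefly in placenta.

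Promoter sequences are shown for the antisense RNA and for Ascl2 and Phlda2, because these 3 genes stand at the opposite ends of the order by S129 share of the 10. Each is the 250 bases before the RefSeq start on the minus strand of GRCm38.p6, the build of mm10, read 5′ to 3′: chr7:143296548-143296797 for Kcnq1ot1, chr7:142969265-142969514 for Ascl2 and chr7:143502525-143502774 for Phlda2. Capitals mark, on either strand, the letters of the CCAAT box (CCAAT), of the GC box to which factors such as Sp1 bind (GGGCGG), and of the TATA box (TATAAA).
Kcnq1ot1: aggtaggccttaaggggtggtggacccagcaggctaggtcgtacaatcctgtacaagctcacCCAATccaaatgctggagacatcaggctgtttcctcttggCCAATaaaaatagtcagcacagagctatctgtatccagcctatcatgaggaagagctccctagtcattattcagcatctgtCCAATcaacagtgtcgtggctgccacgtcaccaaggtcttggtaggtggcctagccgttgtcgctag
Ascl2: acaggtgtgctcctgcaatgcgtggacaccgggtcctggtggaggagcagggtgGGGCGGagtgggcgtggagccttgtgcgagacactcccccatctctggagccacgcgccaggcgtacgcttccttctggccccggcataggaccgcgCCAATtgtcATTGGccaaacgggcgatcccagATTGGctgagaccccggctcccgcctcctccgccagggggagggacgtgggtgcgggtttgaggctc
Phlda2: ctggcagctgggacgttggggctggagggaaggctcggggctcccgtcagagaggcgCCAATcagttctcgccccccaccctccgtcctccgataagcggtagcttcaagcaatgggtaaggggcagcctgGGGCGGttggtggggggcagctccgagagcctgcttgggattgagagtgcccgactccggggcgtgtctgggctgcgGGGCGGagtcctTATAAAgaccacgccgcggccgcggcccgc

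The Kcnq1ot1 and Ascl2 windows each held CCAAT 3 times and the Phlda2 window once, whereas 33.8% of the 32851 mouse promoter windows of the same length held it. GGGCGG, found in 32.7% of all windows, was absent from the Kcnq1ot1 window, present once in that of Ascl2 and 2 times in that of Phlda2. TATAAA, found in 12.4% of all windows, was present in the Phlda2 window alone among these 3. The capitals of different motifs did not overlap. CpG dinucleotides numbered 5, 19 and 21 in the windows of Kcnq1ot1, Ascl2 and Phlda2, against a median of 6 over all windows. The windows not shown do not follow the order by share. That of Slc22a18, with an S129 share of 64.5%, held 0 CpG and none of the motifs. Those of Cd81 and Tssc4 held 16 and 17 CpG, and that of Cd81 held GGGCGG 3 times. The windows of Igf2 held 1, 10, 22 and 6 CpG. A relation of sequence to allele share was not tested. These matches describe letters only, and no binding was measured. The Kcnq1ot1 window lies in an intron of Kcnq1, and GENCODE M21 also holds Phlda2 transcripts that start farther upstream, so that the Phlda2 window lies within that gene's span. Windows were found for 7 of the 10 genes, the others being H19, Cdkn1c and Kcnq1.

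The 4 libraries held 34120416 to 56627972 reads assigned to an allele, as recovered from the steps between the RPKM values, and replicate 4 was the shallowest. On a gene of 1 kb, 1 read was worth 0.0348 to 0.0598 RPKM. Reads on the X chromosome, of which these male cells carry only the S129 copy, were assigned to CAST at 0.112% to 0.132%. Over 11378 autosomal genes with at least 400 reads the median S129 share was 50.5%, with quartiles of 45.8% and 55.2%, and 0.914% of them had a share over 90% or under 10%. Of all 24026 genes, 13341 reached 1 RPKM as the sum of both alleles. All 10 pluripotency markers, among them Pou5f1 and Nanog, stood at 10 RPKM or more. Of the fibroblast markers, 9 of 12 stood at 1 RPKM or more, with summed levels of 987 to 1174 RPKM, most of it Acta2 and Col1a2. Twist1 was at 0, Lum at 0.0924 RPKM, and the S129 share of the list was 50.3% to 51.2%. Trophoblast markers reached 1 RPKM in 9 of 11 (summed 103 to 114 RPKM, S129 share 51.2% to 54.8%), with Cdx2 at 0.779 and Elf5 at 0.634 RPKM. Shares of single trophoblast markers ran from 16.2% to 99.7%, so the share of that list is not the balance of each marker. Primitive endoderm markers reached 1 RPKM in 7 of 12 (summed 119 to 137 RPKM, S129 share 40.6% to 42.3%). H19, Igf2, Cdkn1c, Phlda2 and Ascl2 are also known from such cells. The strain of the feeders is not given in the sources used here. The part of other cell types in the values of the 10 genes was not tested, and in a bulk sample fewer cells of a type and less RNA per cell cannot be told apart.

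The S129 copy was higher for 7 of the 10 genes, H19, Cdkn1c, Phlda2, Ascl2, Slc22a18, Tssc4 and Cd81, and the CAST copy was higher for 0 of 10. Igf2, Kcnq1ot1 and Kcnq1 did not pass the test. Among all 13341 genes tested by the same limma fit, 62.7% were called, 31.4% higher on S129 and 31.3% higher on CAST, with the threshold at a Benjamini-Hochberg adjusted p of 0.05. Among the 12869 autosomal genes, without the S129-only X chromosome, these shares were 61.4%, 28.9% and 32.5%. At 2-fold or more, Phlda2 and Ascl2 were called higher on S129, compared with 9.55% of all genes tested and 6.29% of the autosomal ones, and 5.43% and 5.63% were so called on CAST. The values of the alleles did not overlap between the libraries for Cdkn1c, Phlda2, Ascl2, Slc22a18 and Cd81, where 23.3% of all genes tested and 20.6% of the autosomal ones showed this with S129 higher, and 22.2% and 23% with CAST higher. The median size of the difference, in log2(RPKM+0.1), was 0.33 over the 10 genes, 0.31 over all genes tested and 0.28 over those of chromosome 7. The signed median (S129 minus CAST) was 0.33 over the 10 genes and -0.0034 over all genes tested. Both medians of the 10 genes lie midway between Kcnq1, at 0.19 from only 19 reads, and Cd81, at 0.46. Calls for 3 of the 7, H19, Cdkn1c and Tssc4, depended on the libraries, and their values are given with each gene. Without replicate 1, 4 of the 7 calls held, without replicate 2, 5, without replicate 3, 4, and without replicate 4, 6.

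**Figure D1:**
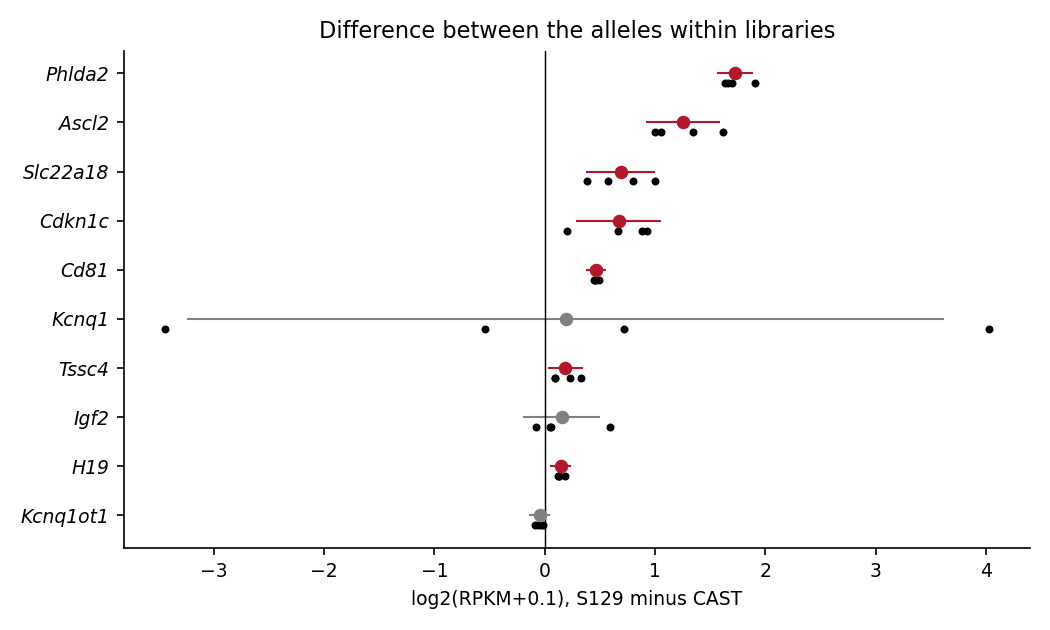
Difference between the alleles (S129 minus CAST) in log2(RPKM+0.1) for each of the 10 genes, with 1 point per library and the limma mean with its 95% interval. Phlda2 and Ascl2 lie above 1, Kcnq1ot1 lies at 0, and the points of Kcnq1, which rests on 19 reads, spread on both sides.

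The levels spanned from H19, at 2098 ± 293 RPKM as the sum of both alleles (SD, n = 4), to Kcnq1, at the bottom. H19 ranked 104 of the 24026 genes and took 0.198% to 0.273% of all assigned reads of a library. Cd81 followed at 339 ± 34 RPKM and Tssc4 at 102 ± 5.3 RPKM. The other 7 were low: Phlda2 at 8.82 ± 1.67, Kcnq1ot1 at 4.44 ± 0.58, Ascl2 at 4.14 ± 0.43, Cdkn1c at 3.89 ± 0.51, Igf2 at 2.58 ± 0.090 and Slc22a18 at 1.34 ± 0.43 RPKM. In this order the ranges of neighbours overlapped for Kcnq1ot1 and Ascl2, for Ascl2 and Cdkn1c, and for Slc22a18 and Kcnq1, and not for the other pairs of neighbours. RPKM divides by a gene length, and with the union of all exons as the length Cd81 came to 181 RPKM and Igf2 to 1.67 RPKM.

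**Figure D2:**
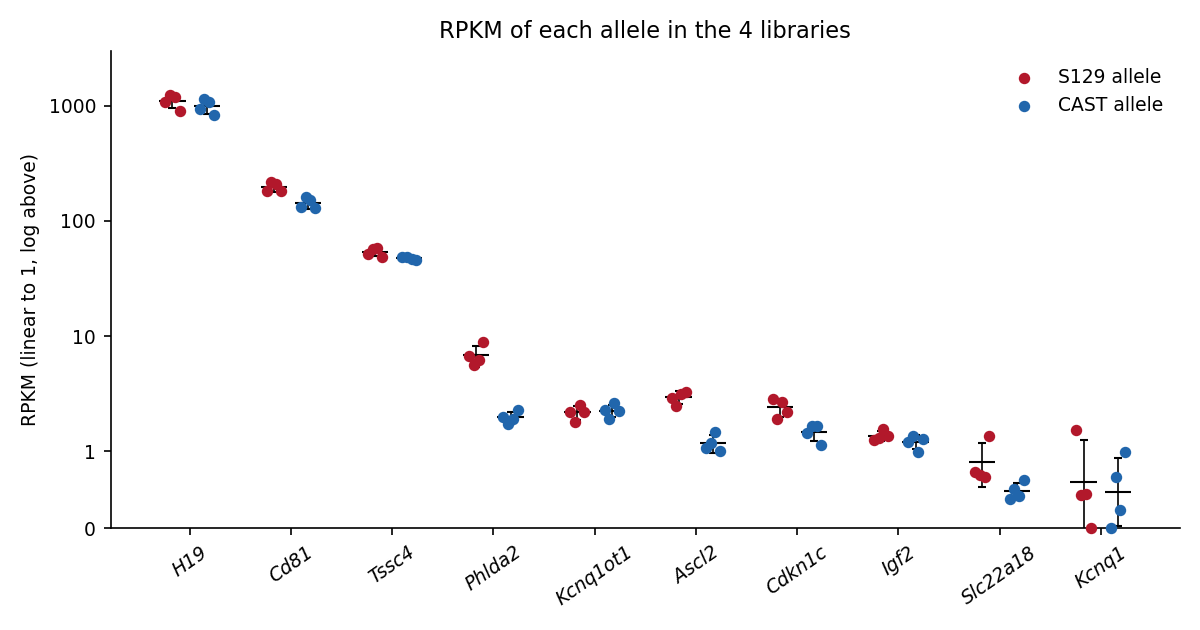
RPKM of the S129 and the CAST copy of the 10 genes in each of the 4 libraries, with the mean and SD. The axis is linear for the lowest values, down to 0, and logarithmic above. H19 stands highest, with means of 1101 and 997 RPKM for its copies, while the S129 points of Phlda2 and Ascl2 lie wholly above their CAST points.

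In the H19-Igf2 domain reads of both genes were assigned to both alleles. H19 (ENSMUSG00000000031, chr7:142575529-142578143, minus strand, mm10) is a spliced non-coding RNA that hosts miR-675. Its S129 copy stood at 1069, 1245, 1186 and 904 RPKM in replicates 1 to 4, and its CAST copy at 940, 1143, 1081 and 825 RPKM. The S129 copy was the higher one in each library, while the groups overlapped, since both copies varied together. The mean was 1101 ± 151 RPKM for S129 and 997 ± 143 RPKM for CAST (SD, n = 4). The difference was 0.14 (SE 0.031, 95% interval 0.062 to 0.23, limma, adjusted p = 0.0147), and 72.7% of all genes tested differed by at least as much. Of 459957 H19 reads, 53.5% were S129 reads (exact Clopper-Pearson 95% interval 53.3% to 53.6%, counting error only), with 53.2% to 54.0% in the libraries. The CAST share of 46.5% stood against the 0.112% to 0.132% assigned to CAST on the X chromosome. The call was lost without replicate 1 (adjusted p = 0.0599), replicate 2 (0.0559) or replicate 3 (0.0589), and with the alleles as unpaired groups (limma, adjusted p = 0.418). The range over all alternatives was 0.00518 to 0.418.

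The microRNA that H19 hosts, Mir675 (chr7:142577064-142577147), was listed at 0 in all 8 allele columns of these polyA-enriched libraries. All 84 bp of it lie inside H19 on the same strand, so that this 0 does not show that its locus had no reads. Both mature forms are shown because they name the product that the H19 values do not measure, from RefSeq on the minus strand of GRCm38.p6 and with the seed, bases 2 to 8, in capitals. The seeds of the forms differ.
mmu-miR-675-5p: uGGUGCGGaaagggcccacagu
mmu-miR-675-3p: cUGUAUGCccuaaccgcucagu

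Igf2 (ENSMUSG00000048583, chr7:142650766-142666816, minus strand) encodes insulin-like growth factor 2, which drives fetal growth through the receptors Igf1r and Insr. Its S129 copy stood at 1.26, 1.29, 1.55 and 1.35 RPKM, and its CAST copy at 1.21, 1.37, 0.993 and 1.29 RPKM. S129 was the higher copy in replicates 1, 3 and 4 and CAST in replicate 2, and the groups overlapped. The mean was 1.36 ± 0.13 RPKM for S129 and 1.22 ± 0.16 RPKM for CAST, and the difference of 0.16 (SE 0.13) did not pass the test (limma, adjusted p = 0.336). Its 95% interval reached from -0.18 to 0.49, which leaves room for a modest excess of either copy. Without replicate 3 the difference was 0.010 (adjusted p = 0.884), and over all alternatives the adjusted p was 0.222 to 0.884. The 902 reads gave an S129 share of 53.8% (50.5% to 57.1%), with 49.6% to 61.8% in the libraries. The antisense gene Igf2os overlaps 7124 bp of Igf2 and had 101 reads, and the strand setting of the counting is not given in the sources used here. A protein-coding gene, Gm49394, overlaps 16048 bp of Igf2 on the same strand, so no strand setting would separate their reads.

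In the Kcnq1 domain the reads counted for the antisense RNA were split almost evenly between the alleles. Kcnq1ot1 (ENSMUSG00000101609, chr7:143203458-143296549, minus strand) lies wholly inside Kcnq1, on the opposite strand. With the strand setting of the counting not given, reads of unspliced Kcnq1 RNA and of Kcnq1ot1 cannot be told apart here. Its S129 copy stood at 2.18, 1.81, 2.55 and 2.21 RPKM in replicates 1 to 4, and its CAST copy at 2.27, 1.93, 2.60 and 2.22 RPKM. The CAST value was the higher one in all 4 libraries by a small margin, and the groups overlapped. The mean was 2.19 ± 0.30 RPKM for S129 and 2.26 ± 0.28 RPKM for CAST. The difference was -0.046 (SE 0.031, 95% interval -0.13 to 0.038, limma, adjusted p = 0.263), and 90.8% of all genes tested differed by at least as much. The sign turned to 0.0074 (adjusted p = 0.850) with reads not divided by the total of their allele, and the adjusted p was 0.233 to 0.850 over the alternatives. Of 35415 reads, 50.1% were S129 reads (49.6% to 50.6%), with 49.5% to 50.8% in the libraries.

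Kcnq1 (ENSMUSG00000009545, chr7:143106362-143427042, plus strand) encodes a voltage-gated potassium channel subunit and was hardly read at all. It had 19 reads in all, 12 of S129 and 7 of CAST, and its S129 share of 63.2% has an interval of 38.4% to 83.7%. Its S129 copy was listed at 1.53, 0.428, 0.448 and 0 RPKM, and its CAST copy at 0, 0.670, 0.233 and 0.986 RPKM. Those RPKM use a length of 182 bp, while the union of its exons is 4093 bp and would give 0.0477 RPKM as the sum of both alleles. It passed the filter of 1 RPKM only through the short length. The difference of 0.19 (SE 1.28) has an interval of -3.23 to 3.61 (limma, adjusted p = 0.908), so that no allele difference was detectable at this depth. It was 0.013 without replicate 3 and 1.40 without replicate 4.

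Phlda2, Cdkn1c and Slc22a18 lie together beyond the Kcnq1 end of the domain, and all 3 were higher on the S129 copy. Phlda2 (ENSMUSG00000010760, chr7:143501545-143503150, minus strand) encodes a pleckstrin homology protein that restrains growth of the placenta. In replicates 1 to 4 the S129 copy stood at 6.70, 5.56, 6.24 and 8.88 RPKM, and its CAST copy at 1.99, 1.72, 1.90 and 2.29 RPKM. Every S129 value lay above every CAST value. The mean was 6.85 ± 1.44 RPKM for S129 and 1.98 ± 0.24 RPKM for CAST, a difference of 1.73 (SE 0.058, 95% interval 1.57 to 1.88, limma, adjusted p = 5.3e-05), or 3.31-fold on the log2(RPKM+0.1) scale. At least such a difference was found for 8.22% of all genes tested. The 624 reads gave an S129 share of 78.0% (74.6% to 81.2%), with 77.1% to 80.1% in the libraries, which left 22.0% of the reads to CAST.

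Cdkn1c (ENSMUSG00000037664, chr7:143458339-143461050, minus strand) encodes the cyclin-dependent kinase inhibitor p57. Its S129 copy stood at 2.83, 1.92, 2.70 and 2.19 RPKM, and its CAST copy at 1.45, 1.66, 1.66 and 1.14 RPKM. The groups did not overlap, although the lowest S129 value, in replicate 2, came close to the highest CAST values. The mean was 2.41 ± 0.43 RPKM for S129 and 1.48 ± 0.24 RPKM for CAST, a difference of 0.67 (SE 0.14, 95% interval 0.29 to 1.05, limma, adjusted p = 0.0142). The 707 reads gave an S129 share of 62.8% (59.1% to 66.4%), with 54.7% to 67.0% in the libraries. The call was lost without replicate 1 (adjusted p = 0.0534) or replicate 3 (0.0539), in a range of 0.00443 to 0.0539 over the alternatives. An antisense gene, Gm44732, overlaps 892 bp of Cdkn1c.

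Slc22a18 (ENSMUSG00000000154, chr7:143473736-143499334, plus strand) encodes a transporter of the organic cation family and was the lowest of the 7 called genes. The S129 copy was measured at 0.729, 0.690, 0.668 and 1.36 RPKM, and its CAST copy at 0.377, 0.506, 0.416 and 0.628 RPKM. All S129 values lay above all CAST values, and both copies were highest in replicate 4. The mean was 0.861 ± 0.33 RPKM for S129 and 0.482 ± 0.11 RPKM for CAST, a difference of 0.69 (SE 0.11, 95% interval 0.38 to 1.00, limma, adjusted p = 0.00696). The 186 reads gave an S129 share of 64.5%, with the wide interval of 57.2% to 71.4%.

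On the other side of Kcnq1, towards H19, lie Ascl2, Cd81 and Tssc4, and all 3 were higher on S129. Ascl2 (ENSMUSG00000009248, chr7:142966829-142969264, minus strand) encodes a basic helix-loop-helix factor required for the spongiotrophoblast of the placenta. The S129 copy was measured at 2.88, 2.48, 3.17 and 3.29 RPKM, and its CAST copy at 1.07, 1.19, 1.48 and 1.01 RPKM. The groups were wholly apart. The mean was 2.96 ± 0.36 RPKM for S129 and 1.19 ± 0.21 RPKM for CAST, a difference of 1.25 (SE 0.12, 95% interval 0.93 to 1.58, limma, adjusted p = 0.00123), or 2.38-fold. At least such a difference was found for 12.0% of all genes tested. The 630 reads gave an S129 share of 71.7% (68.1% to 75.2%), with 68.5% to 77.3% in the libraries.

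Cd81 (ENSMUSG00000037706, chr7:143052739-143067934, plus strand) encodes a tetraspanin of the cell surface. In replicates 1 to 4 the S129 copy stood at 180.4, 218, 208 and 181 RPKM, and its CAST copy at 131, 160.0, 151 and 128 RPKM. All S129 values lay above all CAST values. The mean was 197 ± 19 RPKM for S129 and 143 ± 15 RPKM for CAST, a difference of 0.46 (SE 0.030, 95% interval 0.38 to 0.54, limma, adjusted p = 0.000344), and 36.5% of all genes tested differed by at least as much. Its 49583 reads gave an S129 share of 58.8% (58.4% to 59.3%), with 58.6% to 59.5% in the libraries. The opposite-strand gene R74862 overlaps 948 bp of Cd81 and was called higher on CAST, with an S129 share of 44.1%.

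Tssc4 (ENSMUSG00000045752, chr7:143069249-143071093, plus strand) encodes a protein that takes part in assembly of the spliceosome. The S129 copy was measured at 51.9, 57.4, 58.3 and 48.9 RPKM, and its CAST copy at 48.6, 49.0, 46.4 and 45.7 RPKM. S129 was the higher copy in each library, while its lowest value fell just under the highest CAST value. The mean was 54.1 ± 4.5 RPKM for S129 and 47.4 ± 1.6 RPKM for CAST, a difference of 0.19 (SE 0.055, 95% interval 0.041 to 0.33, limma, adjusted p = 0.0381). The 14687 reads gave an S129 share of 54.3% (53.5% to 55.1%), with 52.5% to 56.7% in the libraries. The call was lost without any 1 of the replicates 1 to 4 (adjusted p = 0.0628, 0.126, 0.102 and 0.0508), without the filter or with a filter of 0.1 RPKM (0.0708 and 0.0575), and with the alleles as unpaired groups (limma, adjusted p = 0.0842). The range over all alternatives was 0.0204 to 0.126. All of Tssc4 is overlapped by Trpm5 on the opposite strand, which had 108 reads.

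**Figure D3:**
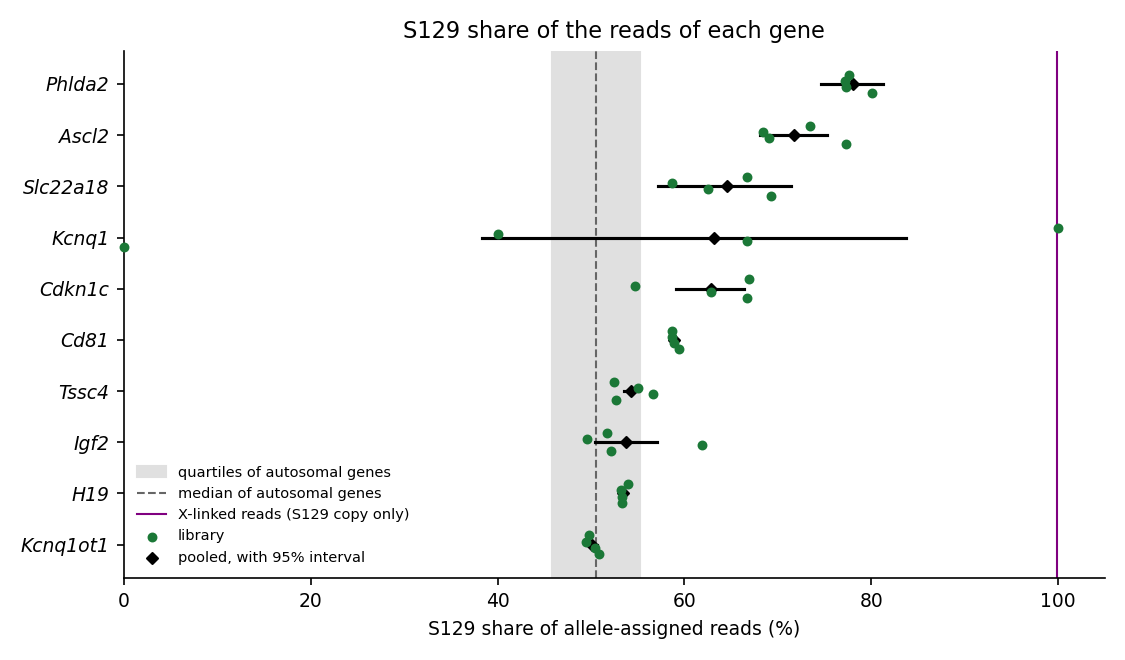
S129 share of the reads of each gene, in percent, with 1 point per library and the pooled share with its exact 95% interval, ordered by the pooled share. The shares fall from 78.0% for Phlda2 to 50.1% for Kcnq1ot1, and the interval of Kcnq1 is the widest.

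Ordered by the pooled S129 share, Phlda2 stood first, followed by Ascl2, Slc22a18, Kcnq1, Cdkn1c, Cd81, Tssc4, Igf2, H19 and Kcnq1ot1. The ranges over the libraries did not overlap between Cd81 and Tssc4 or between H19 and Kcnq1ot1, while all other neighbours in the order overlapped. The place of Kcnq1 rests on replicate 1, without which its share was 36.4%. The other genes with an S129 share over 60%, Phlda2, Ascl2, Slc22a18 and Cdkn1c, were at or under 8.82 RPKM, and H19, Cd81 and Tssc4, which had most of the reads, lay between 53.5% and 58.8%. In none of the 10 genes did the pooled share pass 90%. Shares taken from RPKM, which divides each copy by the total of its own allele, were lower, at 52.5% for H19, 49.2% for Kcnq1ot1 and 58.0% for Cd81. Likeness to other autosomal genes was measured as the Euclidean distance over the 8 allele values in log2(RPKM+0.1), each centred on its gene's mean, across 12859 genes. The genes most like Phlda2 were Pla2g10, 2410003L11Rik and Selenow, with distances of 0.217, 0.319 and 0.345 and S129 shares of 77.2%, 75.5% and 76.5%. For Ascl2 they were Ttc39c, Nrbf2 and Erbb3, with distances of 0.240, 0.317 and 0.346. For H19 they were Rrp7a, Ezr and Rsrc2, with distances of 0.0790, 0.101 and 0.106.

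The 10 genes lie within a stretch that, with 200 kb on each side, holds 24 other listed genes, of which 15 passed the filter. Of these 15, 4 were called higher on S129, 7 higher on CAST and 4 were not called. Over all genes tested 31.4% and 31.3% were called in these directions. Some of the neighbours are themselves known as imprinted genes, so they are not a background without imprinting. Between Ascl2 and Cd81, Tspan32, which encodes a tetraspanin of blood cells, stood at 2.76 ± 0.36 RPKM for S129 and 0.662 ± 0.058 RPKM for CAST, a difference of 1.90 (SE 0.096, limma, adjusted p = 0.000176) and an S129 share of 81.1%. At the H19 end, Tnnt3, Lsp1 and Tnni2 were also higher on S129, with differences of 1.20, 0.93 and 0.68. Between these and H19, the gene of the mitochondrial ribosomal protein Mrpl23 went the other way, at 74.2 ± 7.2 RPKM for S129 and 237 ± 36 RPKM for CAST (difference -1.67, S129 share 24.7%). Ctsd, the cathepsin D gene at the outer edge, was the most abundant neighbour and slightly higher on CAST, with a difference of -0.24 and an S129 share of 46.7%. Syt8 next to it had 84 reads and was not called.

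Beyond Phlda2, Nap1l4 and Cars, the cysteinyl-tRNA synthetase gene, were slightly higher on CAST, with differences of -0.19 and -0.28. Of the decoy receptor genes that follow, Tnfrsf26 stood at 0.354 ± 0.065 RPKM for S129 and 3.40 ± 0.49 RPKM for CAST, a difference of -2.95 (SE 0.037, limma, adjusted p = 3.1e-06) and an S129 share of 9.79%. Tnfrsf23 was likewise higher on CAST, with a difference of -1.10 and a share of 31.7%, and Tnfrsf22 was not called (difference 0.10, interval -0.26 to 0.47, adjusted p = 0.549). Osbpl5, which reaches beyond the 200 kb and was not counted above, was higher on S129 by 0.65 with a share of 61.8%. Dhcr7 and Nadsyn1, still farther out and likewise not counted, were higher on CAST, with differences of -0.79 and -0.33. Ins2 beside Igf2 was listed at 0, and Th had 60 reads. Mir483 was also listed at 0. All 73 bp of it lie inside Igf2 on the same strand, so that its 0 does not show a locus without reads.

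**Figure D4:**
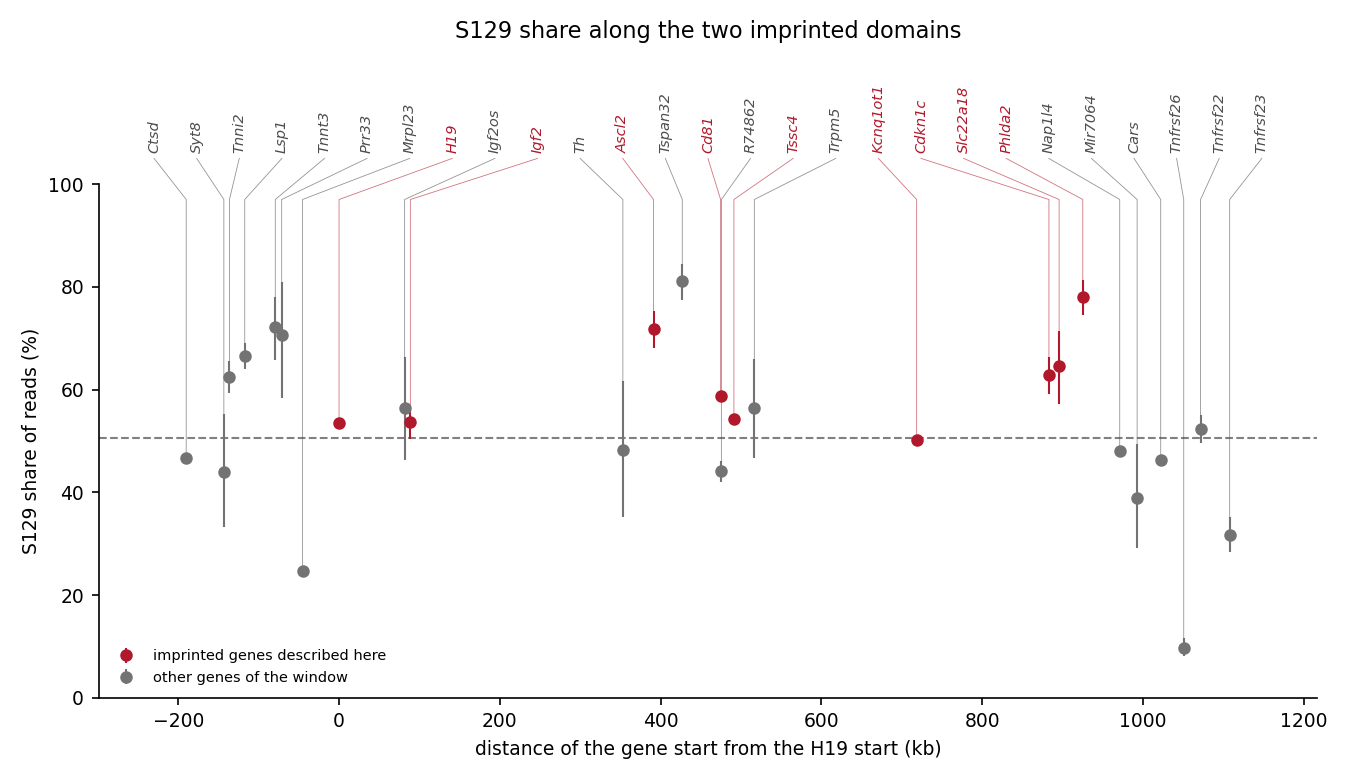
S129 share of the reads, in percent, of the genes of the stretch against the distance from the start of H19 in kb. The 10 genes and their neighbours are marked apart, and the line marks the median share of chromosome 7, 50.5%. Genes with few reads, Kcnq1 among them, are left out. Tspan32 at 81.1% and Tnfrsf26 at 9.79% stand farther from the line than any of the 10 genes. The neighbours include genes that are also known as imprinted.

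Imprinted genes elsewhere in the genome were set beside these shares. Whether each of them is imprinted in ESCs was not examined, so the lists are no scale of imprinting in these cells. Of 7 genes known for expression of the maternal copy, 6 passed the filter, and 4 were called higher on S129, 0 on CAST. The highest shares were those of the non-coding RNAs of the Dlk1-Meg3 domain, Rian at 82.5%, Meg3 at 81.1% and Mirg at 77.7%. Grb10, with 56.2%, was the other gene called, while Zim1, which was under the filter, had a share of 61.6%. Igf2r and Ube3a, at 52.2% and 50.2%, were not called. Of 19 genes known for expression of the paternal copy, 16 passed the filter, 12 were called higher on CAST and 1, Rtl1 with an S129 share of 69.0%, higher on S129. Overlapping genes were looked up for the 10 genes of both domains only. With the strand setting of the counting not given, reads of an opposite-strand RNA could be counted for Rtl1. Both lists stand beside 31.4% of all genes tested called higher on S129 and 31.3% on CAST. Peg3, a zinc finger gene on chromosome 7 far from the Kcnq1 domain, had the lowest S129 share of the list at 10.4% and a difference of -3.12. Usp29, Peg13 and Ndn had 16.6%, 18.0% and 32.3%, and Mest and Peg10 43.3% and 45.1%. The median difference was 1.03 over the maternally expressed list, -0.35 over the paternally expressed list and 0.33 over the 10 genes of both domains, and the differences between these medians were not tested. The value of 0.33 depends on Kcnq1, which had 19 reads.

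**Figure D5:**
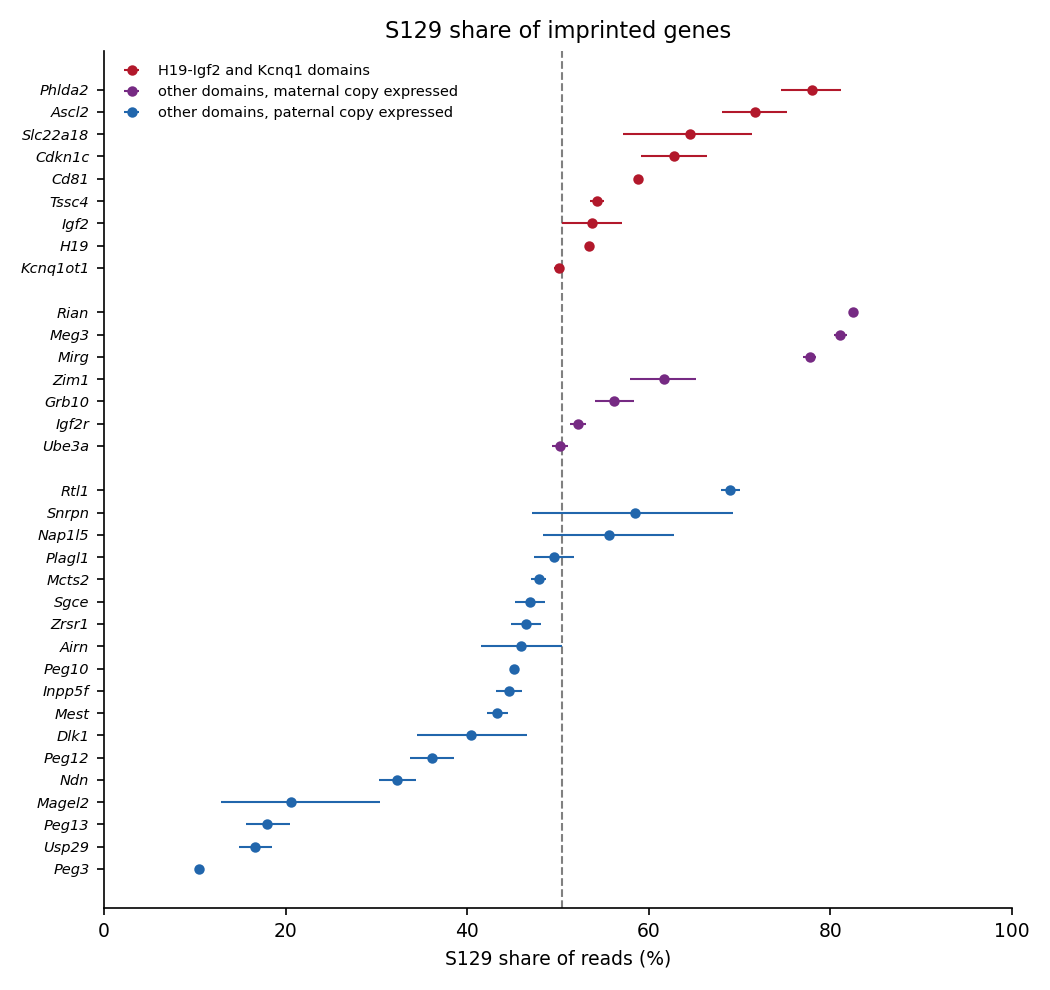
S129 share of the reads, in percent, for genes of both domains and for imprinted genes elsewhere known for expression of the maternal or paternal copy. Each gene has 1 point with its 95% interval, and the dashed line marks the median share of autosomal genes, 50.5%. Genes with few reads, Kcnq1 among them, are left out. The points of the domain genes shown lie between 50.1% and 78.0%, while the other lists reach 82.5% and 10.4%.

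Genes of the IGF pathway, in which Igf2 is a ligand, were all measured, and 4 of 13 were higher on S129, 4 higher on CAST and 5 not called. Of all genes tested, 31.4% and 31.3% were called in these directions. The receptor Igf1r stood at 3.01 ± 0.35 RPKM for S129 and 2.41 ± 0.17 RPKM for CAST (limma, adjusted p = 0.00650), and Insr at 10.7 ± 1.5 and 16.6 ± 2.8 RPKM with CAST higher (adjusted p = 0.00990). The levels of these receptors cannot be set against each other. The RPKM of Insr use a length of 551 bp against an exon union of 13746 bp, and those of Igf1r 11409 bp against 16791 bp. Insr had 1414 reads and Igf1r 5806. The binding protein Igfbp2 was abundant, at 223 ± 24 RPKM for S129 and 326 ± 39 RPKM for CAST. Igfbp3, at 8.07 ± 0.63 and 22.8 ± 1.7 RPKM, had an S129 share of 26.7%. The RNA-binding proteins Igf2bp1, Igf2bp2 and Igf2bp3, which bind Igf2 mRNA, were all higher on S129, with shares of 53.7%, 62.5% and 59.3%. The other ligand, Igf1, stood at 1.07 RPKM as the sum of both alleles and was not called.

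Genes linked to setting or keeping imprints were all expressed at 10 RPKM or more as the sum of both alleles, 17 of 17. Such levels depend on the length used, which for Ctcf was 1554 bp against an exon union of 4860 bp. Of the 17, 4 were called higher on S129, 10 higher on CAST and 3 not called, beside 31.4% and 31.3% of all genes tested. Zfp57, the zinc finger protein that holds methylation at imprinted control regions, stood at 39.8 ± 1.5 RPKM for S129 and 10.8 ± 1.1 RPKM for CAST, an S129 share of 79.1%. Its partner Trim28 was among the highest of the list, at 1214 ± 117 and 1406 ± 130 RPKM, with CAST slightly higher. The maintenance methyltransferase Dnmt1 stood at 52.3 ± 5.4 and 58.9 ± 6.2 RPKM, and Ctcf, the insulator protein of the H19 control region, at 9.75 ± 1.06 and 11.9 ± 1.1 RPKM, both with CAST higher. Setdb1, the histone methyltransferase that acts with Trim28, had an S129 share of 31.8%.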

How the data were processed

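RNA of untreated F123-ESCs was sequenced in 4 libraries with paired reads of 150 bp. The authors deposited an RPKM of every gene for S129 and for CAST. Reads had been trimmed with Trimmomatic 0.40 (per the labels), mapped by STAR against a masked mm10 genome, and divided between S129 and CAST by SNPsplit. The authors also deposited the mean RPKM of each allele and its log10, which were not used here. The counting program, its annotation and its strand setting are not given in the sources used here.

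Gene positions were taken from GENCODE M21 (GRCm38), matching 23995 of 24026 genes by identifier. Reads, allele totals and gene lengths were recovered from the steps between RPKM values; all values of 20135 of the 20243 genes above 0 were whole reads within 0.02. The length of Kcnq1ot1 was found by search, so its reads are the fewest possible. Shares have exact Clopper-Pearson 95% intervals, which cover counting error only. Each RPKM is relative to the total of its allele, and the CAST total holds almost no X-linked reads.

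Alleles were compared with limma 3.58.1 (R 4.3.3) on the difference of log2(RPKM+0.1) within each library, over genes with a mean sum of alleles of at least 1 RPKM, with Benjamini-Hochberg adjustment over all 13341 genes. Small values are understated on this scale. The number pairs the alleles because both are reads of 1 library, and same-numbered columns deviated together from their allele means (correlation 0.106 to 0.202 over 12869 autosomal genes, -0.16 to 0.145 for different numbers). S129 replicate 3 with CAST replicate 2 gave 0.145, above 0.119 for replicate 3 and 0.124 for replicate 2. The correlations alone therefore do not settle the pairs of these replicates. The S129 column whose number carries a minus sign was taken as replicate 1. The genes named were all 10 members, their neighbours within 200 kb that were called, and listed genes. The listed genes were other neighbours, some of them beyond 200 kb, and pathway, imprinted and marker genes. The members and lists were chosen with earlier results of these data known. The recovery of reads and the allele comparison were also run on simulated data. For the comparison, the alleles were drawn independently and only genes with many reads were given a difference. Genes with few reads, such as Kcnq1, were thus not covered. Figures were drawn with matplotlib 3.10.9 in Python 3.11.15.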

Additional observations from a re-analysis of the deposited data

Results flagged for a closer look

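Among 35 quantities of the 4 libraries, the level of Slc22a18 in replicate 4 stood apart from the others by Dixon's criterion, at 1.98 RPKM as the sum of both alleles against 1.08 to 1.20 RPKM in the other libraries. Chance sets about 1 in 20 such groups apart, or 1.75 of 35. Its S129 share and its allele difference did not stand apart in that library.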

How the results depend on the processing

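The 7 calls with S129 higher remained 7 with a pseudocount of 0.01 or 1 RPKM, a variance trend, centring on the autosomes or on chromosome 7, and reads not divided by the total. They fell to 6 without the filter or with a filter of 0.1 RPKM, and to 4 to 6 with 1 library left out. With no replicate block, which ignores the pairing of the alleles, they were 5, H19 and Tssc4 being lost. CAST was higher for 0 of the 10 genes under all these settings, with Kcnq1 under the filter without replicate 1. Kcnq1ot1 turned to 0.0074 with reads not divided by the total, a setting that keeps the larger S129 total. Of the gene differences recomputed under these settings, 115 kept direction and call, 13 lost the call and 1 turned. Exon-union lengths moved the level of Phlda2 to 5.96 RPKM and of Tssc4 to 83.6 RPKM. Over all genes, 3292 to 4664 were called higher on S129 and 3133 to 4374 on CAST. Depth limits Kcnq1 and Slc22a18 most, with 19 and 186 reads.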
